A study of Sylvia borin with 20 samples.

Results

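Heme synthesis, export and breakdown were followed in the whole blood of refueling garden warblers through 9 genes that were taken by name. They were the synthesis enzymes ALAS1, ALAD, UROS, UROD, CPOX, PPOX and FECH, the exporter FLVCR1 and the heme-degrading enzyme HMOX1. Of these genes 8 were measured among the 20898 gene symbols of the tables, and 6 were among the 7800 symbols with a mean of at least 0.1 FPKM (fragments per kilobase of gene, scaled to the reads of a library). FECH, which inserts iron to complete heme, was not analysed here.

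The garden warbler (Sylvia borin) is a small songbird that crosses the Sahara and the Mediterranean in spring. Wild migrants of low body mass were mist-netted on an island stopover site, held in single cages and given mealworms and water without limit. Blood was drawn from a wing vein of 10 birds on day 5, when they were fat, and of the same 10 birds on day 1, when they were lean, so that the state of fuelling, the days in captivity and the cage diet cannot be told apart. All birds were wild and untreated, and avian whole blood mixes nucleated erythrocytes, thrombocytes and white cells.

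Heme is the iron-holding ring that lets hemoglobin carry oxygen. Its synthesis begins and ends in the mitochondrion, with the middle steps in the cytosol, and developing red cells make far more of it than other blood cells. Free heme is toxic, so cells bind it to proteins, export it or cut it open. In vertebrates the first step is run by ALAS1 in most tissues and by ALAS2 in erythroid cells. ALAS2 was not analysed here.

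None of the 6 heme genes that could be fitted passed the test between fat and lean birds. The test was limma on log2(normalized FPKM + 0.1), adjusted by the Benjamini-Hochberg method over 7800 genes, in which 371 genes or 4.76% were called at an adjusted p of 0.05. With the bird as a term in the model, 1034 genes or 13.3% were called, and again 0 of 6 heme genes. At an unadjusted p of 0.05 the count was 0 of 6 without and 1 of 6 with the bird term, the single gene being ALAD. Of all 7800 genes, 1731 passed that limit without and 2347 with the bird term, so that 1 of 6 does not stand out. Adjusted p of the 6 genes lay between 0.430 and 0.929 without the bird term and between 0.164 and 0.811 with it. Their median log2 fold change was 0.08, with 3 genes above and 3 below 0, beside a median of −0.10 over all genes. Over the 4605 genes with a mean of at least 1 FPKM, which all 6 heme genes reached, the median was 0.03. In blood as a whole, fewer cells of a type and less RNA per cell cannot be told apart.

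The libraries held an estimated 1.27 to 3.16 gigabases of aligned reads in fat birds and 0.882 to 4.71 gigabases in lean birds. This size was not measured directly but inferred from the median ratio of coverage (mean depth per base) to FPKM over the genes of a library. Hemoglobin and a few other transcripts took 81.2 to 86.6% of TPM (transcript shares that sum to one fixed total per library) in fat birds and 73.9 to 84.6% in lean birds, counted over the 10 highest genes of a library. To bring libraries to one scale, each FPKM was divided by a factor found as the median of ratios, from 0.754 to 1.07 in fat and from 1.06 to 1.28 in lean libraries. The medians of all genes would be −0.35 with FPKM and −0.43 with TPM as deposited, so directions of the fitted heme genes that turn with the scaling are named beside each gene. For the other genes they are named only in part, and small changes above 0 may turn as well. Read counts are not given, and a 0 was found in some library for 149 symbols whose median FPKM was above 2, with 43 of these zeros in the lean library of bird 8 and at most 31 in any other. A value of 0 is therefore given as listed at 0. Fat libraries listed fewer symbols above 0 than lean ones, with 6467 to 7667 (median 7267.5) in fat and 6776 to 8623 (median 8123.5) in lean birds.

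The erythroid markers, 11 of 15 measured, summed to between 164037 and 299283 normalized FPKM in fat birds and between 121560 and 185830 in lean birds, with the fat library higher in 10 of 10 birds. This sum was almost all HBAA, an alpha globin, at a mean of 219015 normalized FPKM in fat and 141249 in lean birds (log2 fold change 0.62, limma adjusted p = 0.110, and 0.221 with the bird term), with HBAA itself higher in fat in 10 of 10 birds by 0.35 to 0.90 on the log2 scale. The SD of this change over birds was 0.18, whereas the fit with the bird term gave it an SE of 0.33, larger than that spread. A missed call of HBAA here therefore does not show an unchanged level, and the paper, with a count model, reported HBAA as differentially expressed. None of the erythroid markers was called without the bird term, and TFRC (transferrin receptor) and EPB42 (a red cell skeleton protein) were called higher with it, where 5.18% of all genes were. EPB42 was higher in fat in 10 of 10 birds, but in 5 with FPKM and 5 with TPM as deposited. For TFRC these counts were 8, 7 and 6. Of the 11 erythroid markers fitted, 10 had a log2 fold change above 0 and 1 below, a split that may also turn on the scaling. The thrombocyte markers, 7 of 11 measured with THBS1 listed at 0 throughout, summed to between 41.5 and 72.1 in fat and between 43.9 and 129 in lean birds. The most abundant of them, TUBB1, had means of 37.4 in fat and 36.6 in lean birds and was not called (log2 fold change 0.10, limma adjusted p = 0.826). It was higher in fat in 5 of 10 birds. ITGB3, GP1BB and F13A1 were called lower in fat birds, where 3.27% of all genes were. With the bird term ITGA2B was called lower as well, and so were CSF1R and SPI1 of the monocyte and macrophage, CSF3R of the heterophil and BTK of the B cell markers, where 8.08% of all genes were. Monocyte and macrophage markers, 10 of 13 measured with MARCO, LYZ and C1QB listed at 0, summed to between 0.602 and 10.004 in fat and between 1.68 and 24.3 in lean birds. Heterophil markers, 3 of 9 measured with LYG2 at 0, reached 1.39 in fat and 5.18 in lean birds. T cell markers, 7 of 10 measured with CD3E at 0, reached 1.88 in fat and 1.6 in lean birds, and B cell markers, 7 of 8 measured, reached 2.39 in fat and 5.32 in lean birds. The part of cell makeup in the values below was not tested.

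ALAS1 encodes the housekeeping synthase that joins glycine and succinyl-CoA in the mitochondrion. In zebra finch coordinates, those of the genome the reads were mapped to, it lies on the minus strand from 14258149 to 14265348 of its reference sequence. Its level in fat birds was at lowest 0.691, in the median 2.12 and at highest 3.62 normalized FPKM, against 1.04, 1.6 and 4.23 in lean birds. The groups overlapped over most of their range, and the highest library of all was the lean one of bird 3, at 4.23 beside 2.34 in the same bird when fat. The mean was 2.22 ± 0.907 in fat and 1.83 ± 0.908 in lean birds (SD, n = 10 each). The log2 fold change was 0.25 ± 0.28 (SE), with a 95% interval from −0.33 to 0.83 and an adjusted p of 0.636 by limma. The fat library was higher in 7 of 10 birds, all but birds 3, 5 and 6, and the sign turned to −0.045 with FPKM and −0.14 with TPM as deposited.

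ALAD, the cytosolic enzyme that condenses a pair of aminolevulinate molecules into porphobilinogen, varied widely between birds. It lies on the plus strand from 1288609 to 1296508. In fat birds its level was at lowest 1.35, in the median 2.12 and at highest 15.9 normalized FPKM, against 0, 3.23 and 10.8 in lean birds. All 10 fat libraries listed ALAD above 0, whereas the lean libraries of birds 3, 5 and 9 listed it at 0. In these 3 birds the fat library had 1.49, 2.06 and 1.35 normalized FPKM, all below the fat median. Their lean libraries held an estimated 1.46, 1.59 and 1.33 gigabases, against 1.73, 2.41 and 2.26 gigabases in their fat libraries. The smallest library of all, the lean one of bird 2 at 0.882 gigabases, listed ALAD at 2.57 normalized FPKM. The part of library size in the zeros was not tested. Birds 1 and 10 were high on both days, with 11.1 and 15.9 normalized FPKM when fat, against 10.6 and 10.8 when lean. Bird 8 stood apart with 2.18 when fat, against 9.58 when lean.

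The mean of ALAD was 4.73 ± 4.97 in fat and 4.24 ± 4.51 in lean birds, and its log2 fold change was 1.23 ± 0.89 (SE; 95% interval −0.62 to 3.08, limma adjusted p = 0.430). Within birds it was higher in fat in 8 of 10, all but birds 2 and 8, with changes from −2.09 to 4.43 on the log2 scale and a median of 0.46. The fit with bird as a term gave an interval from 0.01 to 2.45 and an adjusted p of 0.164. The size rested on the 3 lean values at 0, since a pseudocount of 0.01 gave 2.22 and a pseudocount of 1 gave 0.38. Group medians ran the other way from the log2 difference, with 2.12 in fat and 3.23 in lean birds.

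The gene HDHD3 begins 29 bases after the end of ALAD on the same strand, so that reads near this border could be given to either gene. HDHD3 was listed above 0 in all 20 libraries, from 0.982 to 12.3 normalized FPKM in fat and from 1.06 to 14.1 in lean birds. Its level followed that of ALAD with a Pearson r of 0.68 over the 20 libraries, a value reached by 16 of the other genes tested. In the 3 birds whose lean library listed ALAD at 0, lean HDHD3 was 3.46, 1.06 and 2.02 normalized FPKM in birds 3, 5 and 9. HDHD3 was chosen for its position after the values of ALAD had been seen, and its own log2 fold change was −0.10 (limma adjusted p = 0.932).

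**Figure D1:**
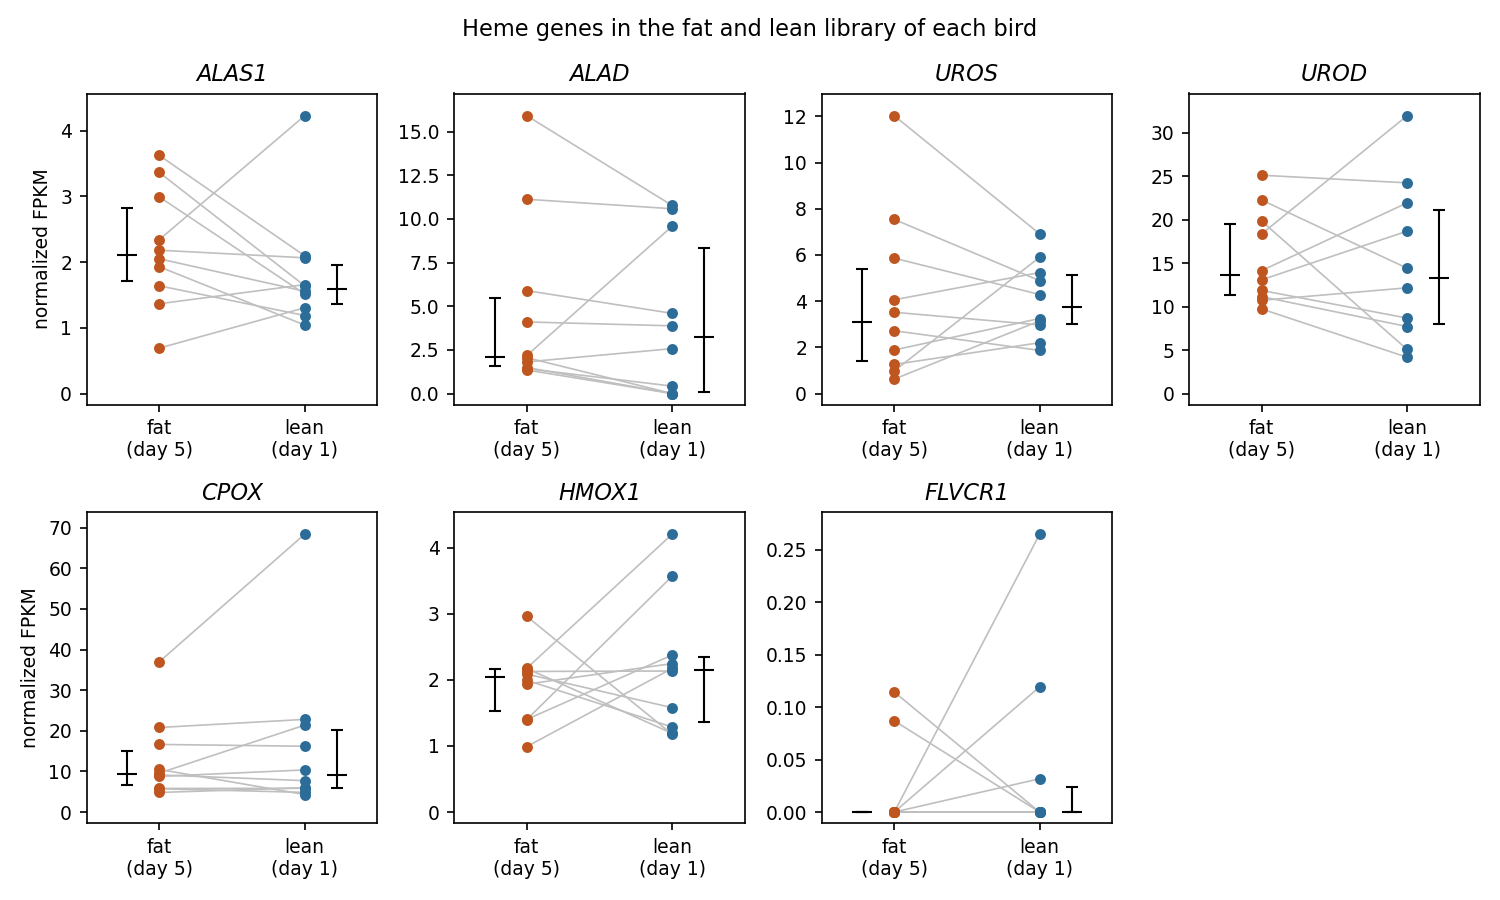
Normalized FPKM (vertical axis) of the 7 heme genes above 0 in the fat library (day 5, left) and the lean library (day 1, right) of each of 10 birds, with lines that join the libraries of a bird. The bars beside the points mark the median with the interquartile range. Fat and lean points overlap in every panel, and the highest points of CPOX are bird 8, at 37.0 when fat and 68.4 when lean.

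UROS closes a chain of pyrroles into the ring of uroporphyrinogen, and it lies on the minus strand from 31910848 to 31920427. Fat birds had 0.627, 3.12 and 12 normalized FPKM as lowest, median and highest values, against 1.87, 3.77 and 6.91 in lean birds. The means were close, at 4.05 in fat and 4.07 in lean birds, but the SD was 3.57 in fat and 1.65 in lean birds. Birds 5, 6 and 7 lay below every lean library when fat, with 1.26, 0.979 and 0.627, and birds 9 and 10 stood above every lean library with 12 and 7.54. The log2 fold change was −0.39 ± 0.42 (95% interval −1.25 to 0.47, limma adjusted p = 0.617), with 5 of 10 birds higher when fat, and the sign stayed negative in all 39 alternatives, with −0.16 without bird 6. The next gene, BCCIP, starts 134 bases beyond UROS on the opposite strand and had a Pearson r of 0.50 with it over the 20 libraries.

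UROD removes the carboxyl groups of the acetate side chains and is encoded on the minus strand from 9546256 to 9549838. It had 9.72, 13.6 and 25.1 normalized FPKM as lowest, median and highest values in fat birds, against 4.17, 13.3 and 31.9 in lean birds. The fat values lay inside the lean range. On the log2 scale birds 1 and 2 changed most, with 19.8 and 9.72 when fat, against 5.07 and 4.17 when lean. Bird 8 went the other way, with 18.4 when fat, against 31.9 when lean. The log2 fold change was 0.27 ± 0.32 (95% interval −0.38 to 0.92, limma adjusted p = 0.656), and 6 of 10 birds were higher when fat. With FPKM and TPM as deposited it turned to −0.04 and −0.13, and without bird 1 it was 0.08.

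CPOX, the mitochondrial oxidase that makes protoporphyrinogen, lies on the plus strand from 19665894 to 19675069. Its lowest, median and highest values were 4.82, 9.36 and 37.0 normalized FPKM in fat birds, against 4.31, 9.05 and 68.4 in lean birds. Bird 8 held the highest value of both groups, and the next birds reached 20.8 when fat and 22.8 when lean. Between the groups it changed by −0.09 ± 0.44 on the log2 scale (95% interval −1.0 to 0.82, limma adjusted p = 0.929). It was 0.19 without the lean library of bird 8, and 4 of 10 birds were higher when fat.

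PPOX, which takes the ring to protoporphyrin, was listed at 0 in all 20 libraries. It lies on the plus strand from 1689322 to 1698437 and overlaps B4GALT3 on the minus strand, which was above 0 in every library at 0.963 to 4.53 normalized FPKM in fat and 1.28 to 5.52 in lean birds. A gene at 0 in every library gives no comparison, and whether PPOX is transcribed in this blood was not tested.

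FLVCR1, first described as an exporter of heme at the cell surface, was near the floor of the data. It lies on the plus strand from 99459949 to 99475225. Fat birds had it above 0 in birds 3 and 7 only, at 0.0869 and 0.114 normalized FPKM, and lean birds in birds 2, 8 and 10, at 0.119, 0.0317 and 0.265. No bird listed it above 0 on both days, and its coverage did not exceed 0.271 reads per base in fat and 0.745 in lean libraries. It did not reach the mean of 0.1 FPKM and entered a fit only without that filter, with a log2 fold change of −0.14 and an adjusted p of 0.755 by limma.

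HMOX1, the inducible oxygenase that opens heme into biliverdin, iron and carbon monoxide, is encoded on the minus strand from 50173430 to 50179571. It had 0.990, 2.04 and 2.96 normalized FPKM as lowest, median and highest values in fat birds, against 1.18, 2.15 and 4.20 in lean birds. The fat values were drawn together, with an SD of 0.546 in fat and 1.01 in lean birds, and the lean libraries of birds 2 and 8 lay above every fat library. A log2 fold change of −0.11 ± 0.25 was found (95% interval −0.64 to 0.41, limma adjusted p = 0.835), with 4 of 10 birds higher when fat. It turned to 0.02 without bird 8 and to 0.07 after quantile normalization.

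**Figure D2:**
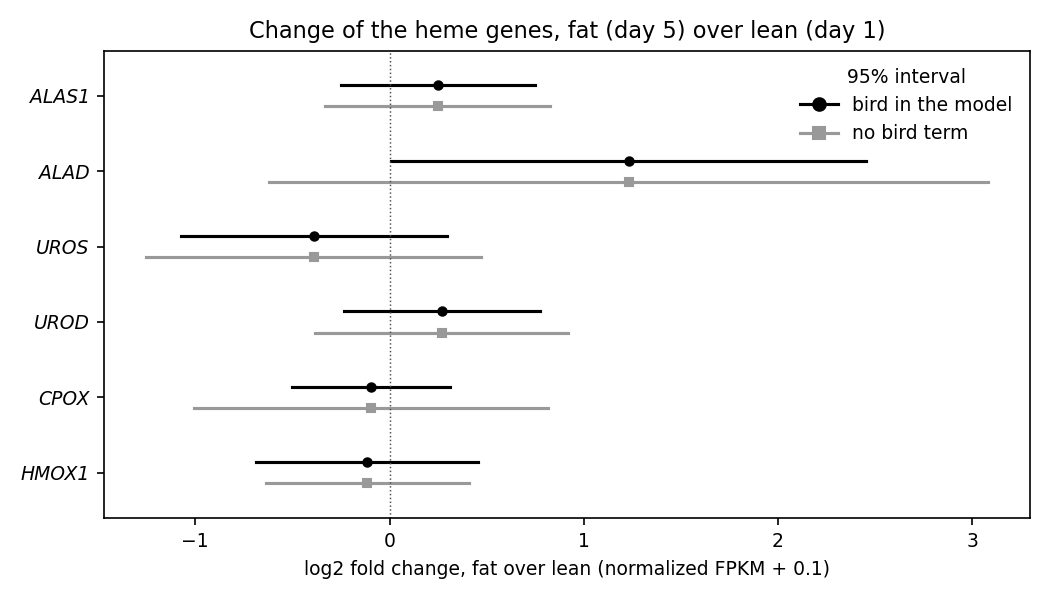
Log2 fold change of fat over lean birds (horizontal axis, normalized FPKM + 0.1) for the 6 heme genes fitted, with 95% intervals from limma with bird in the model (black circles) and without a bird term (grey squares). Every interval without the bird term spans 0, and ALAD alone has one that begins above 0, at 0.01, with bird in the model.

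The intervals set how large a change these data can miss. Without the bird term the upper bound was 0.83 for ALAS1 and 0.92 for UROD on the log2 scale, and the lower bound was −1.25 for UROS and −1.0 for CPOX. With the bird term the interval of CPOX was the narrowest of the 6, from −0.50 to 0.31. The upper bound was then 0.75 for ALAS1 and 0.77 for UROD, and the lower bound was −1.07 for UROS. For HMOX1 the interval was slightly wider with the bird term, from −0.69 to 0.46. A missed threshold does not show that levels were equal in fat and lean birds.

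Since FPKM is scaled for gene length, levels of different genes were set in order within a bird. The reads were mapped to the genome of another species, the zebra finch. How fully the reads of each gene map there was not tested, and this limits the order. Over the means of the log2 values of both libraries the order was UROD, CPOX, UROS, ALAD, HMOX1, ALAS1, FLVCR1 and PPOX, and the 7 neighbouring pairs were compared with an exact sign-flip test over 10 birds, two-sided, whose smallest p is 0.00195. The order was read from the same values, so that these p describe neighbours and do not test the order independently. CPOX was above UROS by 1.70 on the log2 scale in 9 of 10 birds (exact test, adjusted p = 0.0137). ALAS1 was above FLVCR1 in 10 of 10 birds, by a size that the pseudocount sets, since FLVCR1 was listed at 0 in 8 fat and 7 lean libraries. The other neighbours did not differ beyond their spread. UROD and CPOX differed by 0.31 in the same order in 7 of 10 birds (exact test, adjusted p = 0.525). UROS was above ALAD in 6 of 10 birds, ALAD above HMOX1 in 5 and HMOX1 above ALAS1 in 3 (exact test, adjusted p between 0.525 and 0.898), so that their order is not settled. The place of ALAD also depends on the pseudocount, through its 3 lean values at 0. Its mean normalized FPKM was above that of UROS, with 4.73 against 4.05 in fat and 4.24 against 4.07 in lean birds, while its medians were below. FLVCR1 and PPOX were at or near 0.

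In some of these genes the level went with the bird. The log2 value of the fat library was set against that of the lean library over 10 birds, for the 6 heme genes, with 100000 permutations and adjustment over them. CPOX had a Pearson r of 0.86 (permutation p = 0.00185, adjusted 0.0111) and a Spearman rho of 0.67 (permutation p = 0.0396, adjusted 0.119). Without birds 1 and 8, the farthest from the lean median, r was 0.59 (permutation p = 0.124) and rho 0.36 (permutation p = 0.387). The relation of CPOX was thus not secured without these birds. Leaving them out also narrows the range and the number of birds, so the fall in r cannot tell whether the relation rests on them. Without bird 8 alone r was 0.72.

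ALAD kept the order of the birds most closely, with a Spearman rho of 0.87 (permutation p = 0.00253, adjusted 0.0152) and a Pearson r of 0.73 (permutation p = 0.0178, adjusted 0.0534). Without birds 3 and 5, both listed at 0 when lean, its r was 0.73 (permutation p = 0.0373). Bird 9, also listed at 0 when lean, was kept in that check. UROD, UROS and ALAS1 had r of 0.47, 0.45 and 0.35 over the 10 birds, with adjusted permutation p of 0.274, 0.274 and 0.305. HMOX1 went the other way, with an r of −0.42 and a rho of −0.44 (adjusted permutation p = 0.274 and 0.217). Bird 8 had 1.40 when fat, against 3.57 when lean, whereas bird 2, the highest lean library at 4.20, was the second highest when fat at 2.18.

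**Figure D3:**
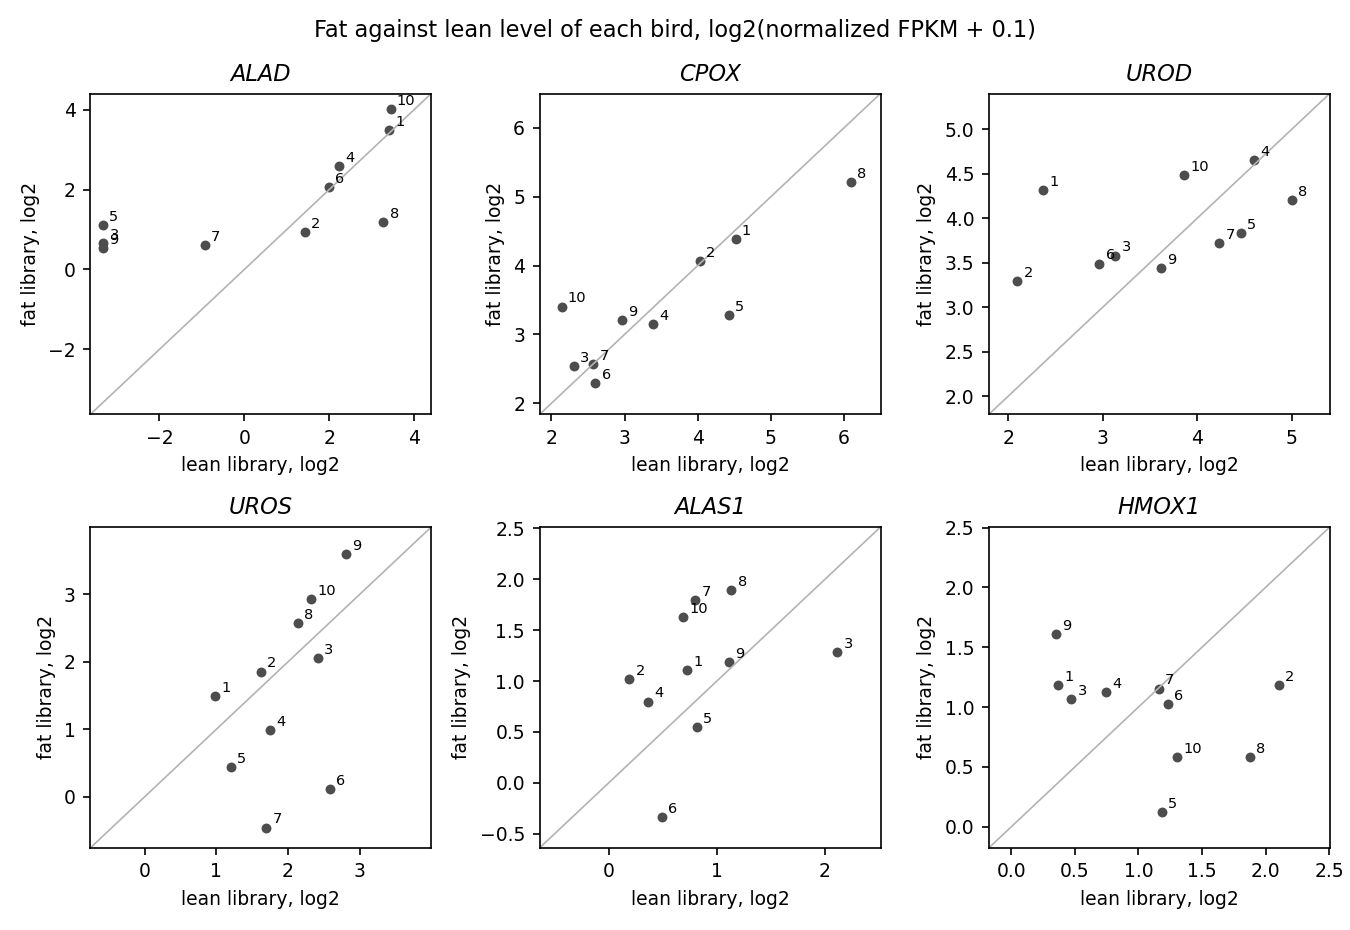
Log2(normalized FPKM + 0.1) of the fat library (vertical axis) against that of the lean library (horizontal axis) for 6 genes, with 1 numbered point per bird and a line of equal values. CPOX points lie along the line with bird 8 at the upper end, the ALAD points of birds 3, 5 and 9 stack at the left edge where the lean value is 0, and HMOX1 points run across the line.

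All genes give the scale for these values. Over 7800 genes the median Pearson r between fat and lean libraries of a bird was 0.31, with quartiles of 0.02 and 0.55. An r as high as that of CPOX was seen in 2.41% of genes and one as high as that of ALAD in 9.15%. For HMOX1 97.4% of genes had an r as high or higher. The 6 heme genes had a median r of 0.46, and 5 of them lay above the median of all genes.

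**Figure D4:**
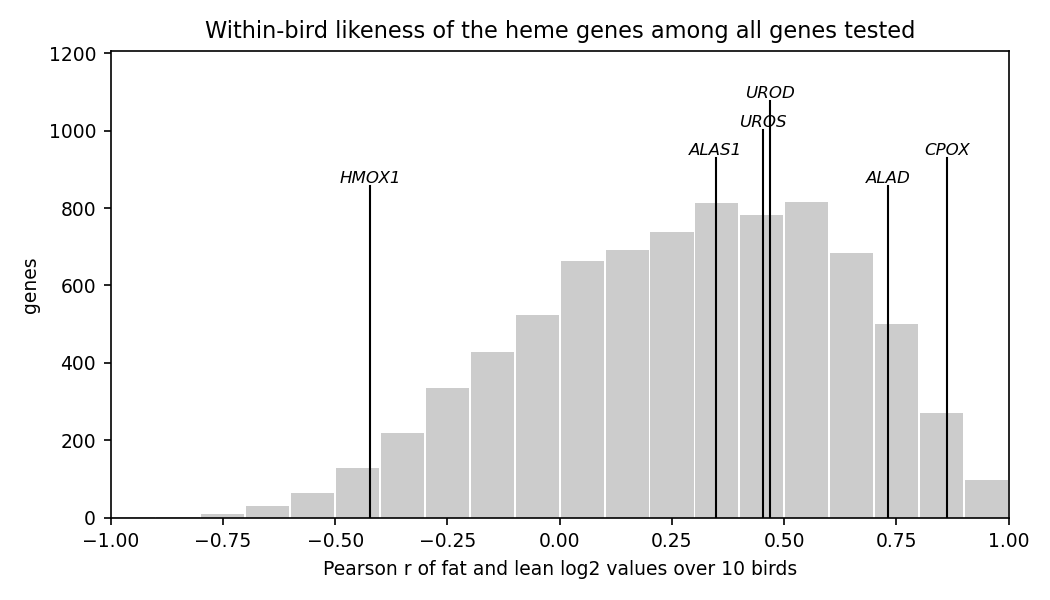
Number of genes (vertical axis) by the Pearson r between fat and lean log2 values over 10 birds (horizontal axis) for all 7800 genes tested, with lines at the 6 heme genes. CPOX stands in the upper tail at 0.86 and HMOX1 in the lower tail at −0.42, around a median of 0.31.

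Bird 8 was among the 4 highest of 10 birds in the mean level of all 6 genes, which no other bird was, a pattern noticed after the values were seen and not tested. It ranked first in CPOX and second in ALAS1, UROD and HMOX1. Its libraries held an estimated 2.24 gigabases when fat and 1.61 gigabases when lean, inside the range of the other birds, and its lean library is the one with most zeros among abundant genes. For the other genes bird 10 ranked first in ALAD, bird 4 in UROD, bird 9 in UROS, bird 3 in ALAS1 and bird 2 in HMOX1. Changes of the 6 genes over birds were compared in 15 pairs, of which 0 passed the threshold by Pearson or Spearman after adjustment. Their r ranged from −0.52 for ALAS1 and ALAD (permutation p = 0.121, adjusted 0.695) to 0.42 for UROD and CPOX (permutation p = 0.227, adjusted 0.695), with a median of 0.24. Without the 2 birds farthest from the median, ALAS1 and ALAD had an r of −0.72 (permutation p = 0.0449, before adjustment). Their rho was −0.36 (permutation p = 0.389). For ALAD and HMOX1 r was 0.77 (permutation p = 0.0191) and rho 0.64 (permutation p = 0.0957), also before adjustment. These pairs had the smallest Pearson p of the 15 in this check, and their rho did not secure either relation. Mean levels over birds, a comparison chosen after the values were seen, gave 0 of 15 pairs, with ALAS1 and UROS highest at an r of 0.42 (permutation p = 0.220, adjusted 0.931) and a rho of 0.31 (permutation p = 0.384, adjusted 1.0).

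The genes most like each heme gene were those of highest Pearson r over the 20 libraries among the 7800 genes, given as a description since libraries of a bird are not independent. CPOX was followed by CKS1B (r = 0.84), NR3C2 (0.83) and RRM2 (0.79). CKS1B, which encodes a subunit of cell cycle kinases, reached 12.6 normalized FPKM in the fat and 8.44 in the lean library of bird 8, and no other library exceeded 2.41. RRM2, a subunit of ribonucleotide reductase, was above 0 in 2 fat and 2 lean libraries and was highest in bird 8, with 2.05 when fat and 2.39 when lean. NR3C2 did not exceed 0.312 normalized FPKM in fat and 0.958 in lean libraries, both again in bird 8. The genes most like ALAD were PPIH (0.82), CCNC (0.79) and DCTN3 (0.78), and those most like UROD were PEX19 (0.78), HSPB11 (0.78) and KDM4B (0.77). For UROS they were EXT2 (0.77), NOC3L (0.74) and DYNLRB1 (0.73), for HMOX1 TOR2A (0.80), L3MBTL3 (0.76) and DEXI (0.75), and for ALAS1 FMC1, TECPR1 and GPALPP1, each at 0.72. No gene appeared for more than 1 heme gene.

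Around these members, 31 other genes of heme synthesis, transport, binding and breakdown were examined, of which 25 were measured and 21 fitted. The test called 0 higher and 1 lower in fat birds, where 1.49% and 3.27% of all genes were called, and with the bird term 1 higher and 1 lower, where 5.18% and 8.08% were. Their median log2 fold change was 0.0092, with 11 above and 10 below 0. The gene called higher was SLC25A37 (mitoferrin, the carrier that brings iron into the mitochondrion of erythroid cells). It had 44.8, 68.1 and 88.9 normalized FPKM as lowest, median and highest values in fat birds, against 38.2, 51.6 and 63.9 in lean birds, and the fat library was higher in 9 of 10 birds. Its log2 fold change was 0.42 ± 0.14 (limma adjusted p = 0.0727, and 0.0310 with the bird term). The change was 0.11 with FPKM and 0.01 with TPM as deposited, where 7 and 6 of 10 birds were higher when fat. The call with the bird term was lost when bird 1, 4, 6, 7, 8 or 10 was left out. Over the 10 birds left out, its limma adjusted p lay between 0.0233 and 0.0708.

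None of the other carriers reported here was called. ABCB6, a porphyrin carrier, had 41.5 ± 7.15 normalized FPKM in fat and 43.8 ± 8.95 in lean birds, and SLC25A39 had 71.9 ± 19.3 in fat and 72.1 ± 21.5 in lean birds. The median coverage of SLC25A39 was 150 reads per base in fat and 156 in lean libraries. For SLC25A37, at a similar FPKM, it was only 18.4 in fat and 14.7 in lean libraries. The cause of this gap was not tested, and it limits the level given for SLC25A37. SLC25A38, the glycine carrier that serves ALAS, had 3.62 ± 0.938 in fat and 3.19 ± 0.986 in lean birds (limma adjusted p = 0.636). ABCB10 had a log2 fold change of 0.24 (limma adjusted p = 0.570). Both directions depended on the scaling. SLC25A38 was higher when fat in 7 of 10 birds, but in 3 with FPKM and 3 with TPM as deposited. For ABCB10 these counts were 7, 4 and 4.

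LRP1, a large receptor that takes up the complex of heme with hemopexin, was the gene called lower. Fat birds had 0, 0.187 and 0.559 normalized FPKM as lowest, median and highest values, against 0.270, 0.660 and 2.58 in lean birds, and it was lower in 9 of 10 fat birds. The log2 fold change was −1.37 ± 0.40 (limma adjusted p = 0.0471, and 0.00980 with the bird term). It held with the bird term whichever bird was left out, whereas over 38 alternatives it was lost in 16, all without that term, among them a pseudocount of 0.01 (limma adjusted p = 0.0759), quantile normalization (0.174) and leaving out the lean library of bird 8 (0.0701). With the number of symbols above 0 as a covariate the limma adjusted p was 0.298. LRP1 was low in both groups, and the part of the fewer symbols listed in fat libraries was not tested. LRP1 is also a gene of macrophages, and the monocyte and macrophage marker sum was lower in fat in 8 of 10 birds. Other marker sums were higher in fat in 1 (heterophil), 2 (B cell), 4 (thrombocyte and T cell) and 10 (erythroid) of 10 birds. The part of cell makeup in the change of LRP1 was not tested. The heme-binding membrane proteins PGRMC1 and PGRMC2 had log2 fold changes of −0.98 and −0.89 (limma adjusted p = 0.154 and 0.188).

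In breakdown, HMOX2, the constitutive oxygenase, had higher levels than HMOX1, with 11.7 ± 4.54 normalized FPKM in fat and 7.48 ± 5.03 in lean birds, of which 1 lean library listed it at 0. Its log2 fold change was 1.20 (95% interval −0.08 to 2.48, limma adjusted p = 0.253), and 9 of 10 birds were higher when fat. The size rested on the lean library at 0, that of bird 8, without which the change was 0.58. BLVRA, which reduces biliverdin, had 19.3 ± 12 in fat and 15.4 ± 11 in lean birds (limma adjusted p = 0.546). Of the genes that act on ALAS1 in mammals, CLPX, a mitochondrial unfoldase, had 18.8 ± 3.55 in fat and 24.9 ± 5.95 in lean birds, with a log2 fold change of −0.38 (limma adjusted p = 0.126) and lower values in 8 of 10 fat birds. PPARGC1A, a coactivator that induces ALAS1 in fasted mouse liver, was above 0 in 4 fat and 8 lean libraries (log2 fold change −0.92, limma adjusted p = 0.174). SUCLA2, a subunit of succinyl-CoA synthetase, had a log2 fold change of 0.19 (limma adjusted p = 0.595).

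Of 14 regulators that sense heme or bind beside those that do, 12 were measured and 10 fitted, with a median log2 fold change of 0.12, and 1 was called lower in both fits, where 3.27% of all genes were called lower without and 8.08% with the bird term. This was MAFF, a small Maf protein and partner of BACH1 and NFE2L2. It had 0, 0.129 and 0.433 normalized FPKM as lowest, median and highest values in fat birds, against 0.420, 1.36 and 3.80 in lean birds, so that the groups met only at their edges. The log2 fold change was −2.76 ± 0.44 (limma adjusted p = 0.00275), lower in 9 of 10 fat birds, and the call was lost only with the number of symbols above 0 as a covariate (adjusted p = 0.132), among 38 alternatives. That number was mostly lower in fat libraries, and its part in the change of MAFF was not tested. The partners were higher in level and not called, with 151 ± 20.7 normalized FPKM in fat and 139 ± 33.8 in lean birds for NFE2L2, and 10.3 ± 3.50 in fat and 8.33 ± 2.88 in lean birds for BACH1. MAFK, another small Maf protein, was far more abundant than MAFF, with 118 ± 18 in fat and 107 ± 22.5 in lean birds, and was not called. GATA1 and TAL1 of this list are erythroid markers as well. NR1D2, a heme-binding receptor, and KEAP1, which holds NFE2L2 in check, had log2 fold changes of −0.46 and 0.45 (limma adjusted p = 0.166 and 0.226).

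FECH of vertebrates holds an iron-sulfur cluster, and the 13 genes of cluster assembly were all measured, with 11 fitted. Their median log2 fold change was 0.07, with 0 called without the bird term and 2 called higher with it, where 5.18% of all genes were. GLRX5, a glutaredoxin that passes clusters on and whose loss halts heme synthesis in zebrafish, had 178, 400 and 763 normalized FPKM as lowest, median and highest values in fat birds, against 156, 308 and 513 in lean birds. It was higher in 10 of 10 fat birds, with a log2 fold change of 0.46 (limma adjusted p = 0.225, and 0.0191 with the bird term). LYRM4, which steadies the cysteine desulfurase, had 39.0 ± 13.7 in fat and 30.4 ± 17.4 in lean birds, with 0.49 on the log2 scale (limma adjusted p = 0.298, and 0.0233 with the bird term), and was higher in 9 of 10 fat birds. Its call was lost without bird 2 or bird 10 (adjusted p = 0.0520 and 0.0589) and with aligned gigabases added to the bird term. That of GLRX5 held with each single bird left out, and both were lost without birds 8 and 10 together (limma adjusted p = 0.0614 for GLRX5 and 0.113 for LYRM4). With TPM as deposited the changes were 0.06 for GLRX5 and 0.09 for LYRM4, and with the bird term neither was called on that scale (limma adjusted p = 0.710 and 0.690). The count of birds higher in fat also turned on the scaling. It was 6 with FPKM and 4 with TPM as deposited for GLRX5, and 8 and 6 for LYRM4. HSPA9 and ISCA2 had log2 fold changes of 0.39 and −0.55 (limma adjusted p = 0.181 and 0.175).

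**Figure D5:**
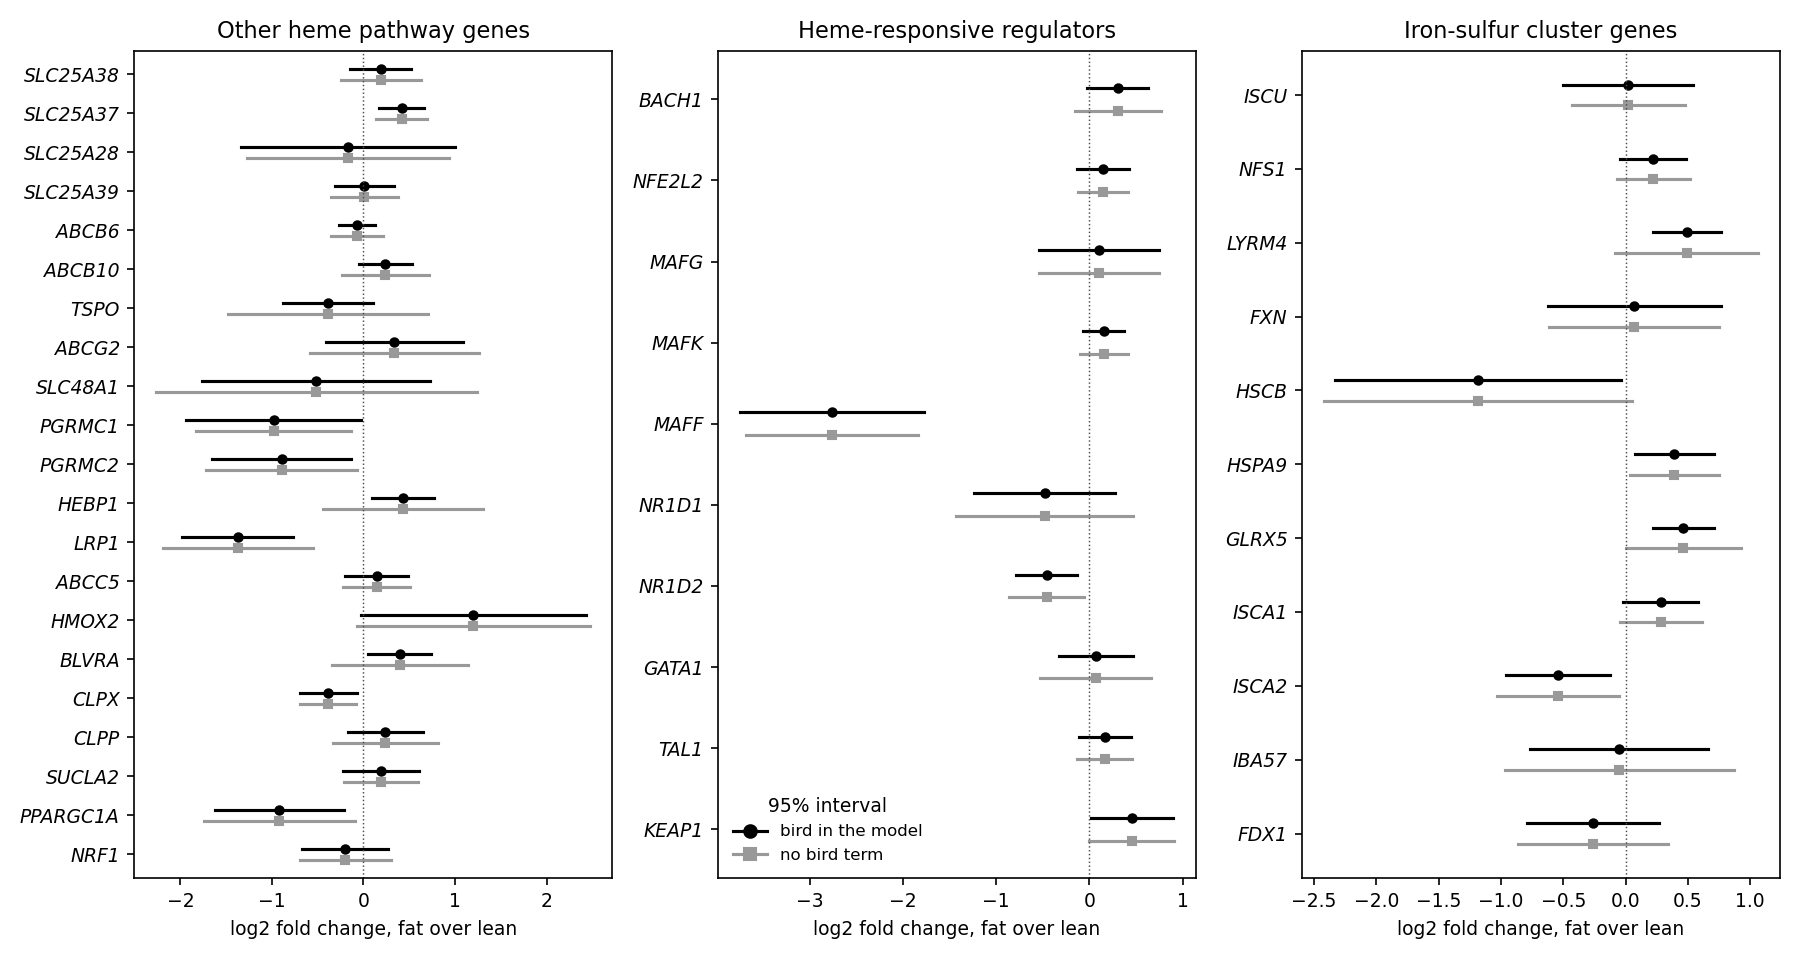
Log2 fold change of fat over lean birds (horizontal axes) with 95% intervals from limma, for the other heme pathway genes, the heme-responsive regulators and the iron-sulfur cluster genes that were fitted, with bird in the model (black circles) and without (grey squares). MAFF at −2.76 and LRP1 at −1.37 lie farthest below 0 among the called genes, and SLC25A37, GLRX5 and LYRM4 lie between 0.42 and 0.49.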

How the data were processed

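Whole blood RNA of 10 garden warblers was sequenced on day 5 (fat) and day 1 (lean), 20 libraries. The authors mapped reads to the zebra finch genome (annotation release 106) with STAR and deposited StringTie tables of coverage (mean depth per base), FPKM and TPM per gene, without scaling between libraries. They compared conditions with a count model on read counts, which were not used here. Lines of a symbol were added up, and libraries were scaled by the median of ratios over 4487 symbols above 0 throughout. A mean deposited FPKM of 0.1 or more was reached by 7800 symbols, whose values entered as log2(FPKM + 0.1), a scale that understates changes of low genes. The fit was limma 3.58.1 in R 4.3.3 (variance trend, two-sided, Benjamini-Hochberg adjusted p of 0.05) with no bird term, since the methods name none. Tested on simulated data of 7800 genes, the fit found 82% of log2 changes of 2 and 35% of log2 changes of 1 with 9 false calls, and with the bird term 78% and 28% with 8 false calls. The simulated noise was normal, without the zeros of the data, and had the residual spread of the fit without a bird term. For the bird term, effects of birds were added on top of that spread, which already holds them. The 78% and 28% thus do not measure how well the bird term works in these data.

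Replicate numbers in the labels pair the libraries of a bird, which the methods say was sampled on both days. Once group means were removed, same-bird libraries correlated at 0.152 to 0.382, and 20 of 20 libraries were most like their own bird. The codes of birds 8 and 10 differ between labels and supplement. Birds are separate animals, and read counts are unknown, so no counting error is given.

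The members and lists were chosen with earlier results of these data known. The text names all 9 members, list genes called with or without the bird term, the 3 of smallest p in each pathway group and in each other list, marker genes called in the same way (the 2 most abundant per cell type, also in the rule, enter only through the sums unless called, apart from HBAA and TUBB1), the 3 genes most like each member, and others that were chosen after their values were seen (HDHD3, BCCIP, B4GALT3, ABCB6, SLC25A39, NFE2L2, MAFK, BACH1). All 9 members matched the garden warbler annotation by symbol, but the values here rest on the zebra finch annotation. Some genes of the lists are not reported here. Alternatives were other pseudocounts, filters and scalings, the bird term, depth covariates, sample weights and leaving out birds. The remaining steps ran in Python 3.11.15 (scipy 1.17.1, numpy 2.4.6, matplotlib 3.10.9, pandas 2.3.3).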

Additional observations from a re-analysis of the deposited data

Results flagged for a closer look

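In 14 groups of 10 libraries (fat or lean birds, 7 genes), 4 groups held a highest value set apart from the next by more than Dixon's limit at the 5% level, which chance passes in about 1 of 20 groups of normally distributed values. These values are skewed, and on the log2(normalized FPKM + 0.1) scale, a comparison added after the values were seen, 1 group passed the limit, that of ALAS1 in lean birds. CPOX in bird 8 was set apart on both days, at 37.0 normalized FPKM in the fat library, where the next bird had 20.8, and at 68.4 in the lean library, where the next had 22.8. ALAS1 was set apart in the lean library of bird 3, at 4.23 beside 2.10. FLVCR1 was set apart in the lean library of bird 10, at 0.265 beside 0.119, in a group where 7 libraries listed it at 0. The lean library of bird 8 is also the one with the most abundant genes listed at 0, and its part in these values was not tested.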

How the results depend on the processing

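Under all 39 alternatives 0 heme genes were called, while the count over all genes moved from 371 to 120 without a filter, 882 with FPKM and 1243 with TPM as deposited, 177 after quantile normalization, 160 with aligned gigabases as a covariate, 0 with the number of symbols above 0 as a covariate (limma, 948 at an unadjusted p of 0.05) and 186 without the lean library of bird 8. Leaving out a bird gave 73 to 400 (73 without bird 10). The share of calls that were lower in fat was 68.7%, but 97.1% with FPKM and 98.6% with TPM. With the bird as a replicate block the count was 1034, and 615 with gigabases added. Alternatives added after seeing the data gave, with the block, 1519 with FPKM, 2007 with TPM, 897 and 1073 with pseudocounts of 0.01 and 1, and 554 to 1133 over birds left out (797, 632, 809, 958, 663, 687, 771, 735 and 1133 without birds 1 to 9, 554 without bird 10).

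Directions turned for ALAS1 (−0.045 with FPKM, −0.14 with TPM, −0.23 with the symbol covariate), UROD (−0.039 and −0.13 with FPKM and TPM), CPOX (0.011 with gigabases, 0.015 with symbols, 0.068 with sample weights, 0.19 without the lean library of bird 8, 0.024 without bird 5 and −0.24 without bird 10 as the extremes over birds left out) and HMOX1 (0.066 after quantile normalization, 0.088 with symbols, 0.016 without bird 8 and −0.27 without bird 9 as the extremes over birds left out, 0.11 in the block without birds 8 and 10). With the block the changes with FPKM, with TPM and with single birds left out were the same, and CPOX stayed at −0.097 with gigabases added. ALAD stayed between 0.38 and 2.92 and UROS between −0.78 and −0.11. Birds higher in fat were 5 for ALAD with TPM, and 3 for UROS and 2 for CPOX with either deposited unit. The cause was not tested. Coverage was low for several of these genes. ALAS1, at a median of 2.12 normalized FPKM in fat and 1.6 in lean birds, had a median coverage of 4.08 reads per base in fat and 3.94 in lean libraries. For HMOX1 it was 3.86 in fat and 4.78 in lean libraries, for ALAD 4.68 and 7.68, and for UROS 4.63 and 7.98. FLVCR1 did not exceed 0.745. This limits every value of these 5 genes.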
